A study of Homo sapiens with 18 samples.

Results

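The family described here consists of 9 genes of the insulin-like growth factor (IGF) system, chosen by symbol from the deposited count table of 33121 genes. They are 6 binding protein genes (IGFBP2, IGFBP3, IGFBP4, IGFBP5, IGFBP6 and IGFBP7), the ligand gene IGF2 and the receptor genes IGF1R and IGF2R. All 9 were listed and 8 passed the low-count filter for testing. IGF2 did not pass it, with 5 counts in all 18 libraries together.

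RNA was sequenced from RPE-1 cells, a human retinal pigment epithelial line immortalized with hTERT, in 6 groups of 3 libraries. The study compared knockdown of MondoA, a glucose-responsive transcription factor encoded by MLXIP, and of its DNA-binding partner MLX with a control siRNA, with and without doxorubicin (DXR), a DNA-damaging drug. In the siMondoA, DXR group, cells were transfected with an siRNA against MondoA for 2 days and then given DXR at 150 ng/ml for 3 days. The siMlx, DXR and siControl, DXR groups had the same drug after an siRNA against Mlx or a control siRNA, and the siMondoA, siMlx and siControl untreated groups had the siRNAs without DXR. All cells thus went through transfection, all come from 1 cell line, and no group had cells without an siRNA. The library descriptions also carry the tag D5 in every DXR library and D0 in every untreated one, with no explanation, so that a difference in harvest day and DXR cannot be told apart. Nothing in the labels says that the 3 libraries of a group came from separate cultures, and p-values then measure only the spread between these libraries, which may be technical.

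Total counts ran from 15503423 to 29219280 per library. MLXIP stood at 3.34, 4.57 and 3.63 CPM (counts scaled to library size by TMM) in untreated siMondoA libraries, against 69.5, 72.9 and 63.7 CPM in untreated siControl libraries, and at 1.63, 2.58 and 2.86 CPM against 64.0, 63.2 and 66.6 CPM under DXR. MLX stood at 6.79, 7.12 and 7.10 CPM in untreated siMlx libraries, against 25.8, 27.4 and 25.7 CPM with siControl, and at 5.70, 4.93 and 5.94 CPM against 26.4, 26.8 and 26.4 CPM under DXR. Both targets were low in all libraries whose labels name their siRNA. MLX was higher with siMondoA than with siControl, at 49.2 against 26.3 CPM in untreated cells (log2 0.91, edgeR adjusted p = 5.26e-10). Under DXR it was higher by log2 0.72 (adjusted p = 5.72e-08). So siMondoA and siMlx differ in MLX in both directions from siControl. MLXIP with siMlx did not differ past the test (0.17, adjusted p = 0.119, and 0.11, adjusted p = 0.372, under DXR). Of 15 markers of retinal pigment epithelium, 7 were tested. MITF, OTX2, KRT8 and KRT18 had 198 to 15275 counts per library, whereas the visual-cycle genes RPE65 (0 to 13 counts per library) and RLBP1 (0 to 4) and the pigment gene DCT (0 to 1) were at or near 0. Of 10 fibroblast markers, 8 were tested. The summed level of the fibroblast list ran from 761 to 1110 CPM in DXR libraries and from 471 to 646 CPM in untreated ones, and that of the retinal list from 975 to 1400 CPM against 366 to 849 CPM, so both sums stood higher with DXR, as did several binding protein genes below. The abundant KRT8 and KRT18 made up most of the retinal sum, and single markers went either way: with DXR in siControl cells 3 of the 7 retinal markers were higher and OTX2 was lower (log2 -0.63, edgeR adjusted p = 1.75e-05), and 6 of the 8 fibroblast markers were higher and PDGFRA (-0.57, 0.000108) and PDGFRB (-0.38, 0.0107) lower. Of all genes tested, 28.1% were higher and 28.6% lower there. The higher markers include TYRP1 (0.101 CPM untreated, 1.12 CPM with DXR) and COL1A2 (0.211 and 0.889 CPM). Both averaged below the filter cutoff of 0.514 CPM in each untreated group, so their higher calls say little. The siRNAs moved some markers too. With siMondoA in untreated cells PDGFRA (log2 1.11, edgeR adjusted p = 1.37e-08), DCN (1.03, 0.0384) and KRT18 (0.36, 0.0413) were higher. PDGFRB (-0.71, 6.57e-05), THY1 (-0.66, 1.18e-08) and BEST1 (-2.02, 0.00452, at 0.160 against 0.646 CPM) were lower there. The other tested markers of both lists did not pass with siMondoA in untreated cells. With siMlx in untreated cells the retinal sum was 366 to 459 CPM, against 559 to 745 CPM with siControl. MITF (log2 -0.75, edgeR adjusted p = 4.57e-07), OTX2 (-0.46, 0.000575), KRT8 (-0.40, 0.00339) and KRT18 (-0.99, 1.16e-05) were lower there. BEST1, TYRP1 and MERTK did not pass. Of the fibroblast markers, PDGFRA (-0.61, 8.18e-05) and PDGFRB (-0.97, 2e-06) were lower and COL1A1 (0.64, 0.0212) higher with siMlx in untreated cells. Under DXR the retinal sum was 975 to 1060 CPM with siMlx, 1320 to 1400 with siMondoA and 1170 to 1220 with siControl. The part of the markers in the results was not tested, and in such bulk libraries fewer cells of a type and less RNA per cell cannot be told apart. Markers of blood and endothelium summed to 3.64 to 7.61 CPM. Hepatocyte markers had 0 to 4 counts per library.

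The IGFs are secreted growth factors that act through the tyrosine kinase IGF1R. The binding proteins are secreted carriers that hold IGFs away from the receptor or deliver them to it, until proteases such as the pappalysin PAPPA cleave them, and IGF2R takes up IGF-II for breakdown in lysosomes. Several binding proteins, IGFBP3, IGFBP5 and IGFBP7 among them, are known as products of senescent cells.

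The genes lie on 8 chromosomes (GENCODE release 29, GRCh38). IGFBP2 (chr2:216632828-216664436, plus strand) and IGFBP5 (chr2:216672105-216695525, minus strand) are neighbours with their ends 7.7 kb apart. IGFBP3 (chr7:45912245-45921874) and IGFBP7 (chr4:57030773-57110385) lie on the minus strand, and IGFBP4 (chr17:40443461-40457731), IGFBP6 (chr12:53097436-53102345), IGF1R (chr15:98648539-98964530) and IGF2R (chr6:159969099-160113507) on the plus strand. IGF2 lies on chromosome 11 on the minus strand, and overlaps the read-through gene INS-IGF2, which had 0 counts. IGFBP7 overlaps POLR2B on the opposite strand by 396 bases and the antisense gene IGFBP7-AS1 by 624 bases. The strand setting of the authors' counting is not given in the sources used here, so reads there cannot be assigned with certainty. Over all libraries POLR2B held 43351 counts and IGFBP7-AS1 142, against 301150 for IGFBP7.

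MondoA and MLX bind DNA together at carbohydrate response elements, which are built from E-box motifs. The 250 bases before the RefSeq start (GRCh38.p14) were therefore searched on both strands for the E-box CACGTG, the TATA box TATAAA, the GC box GGGCGG and the p53 half-site, in the 7 members that the RefSeq promoter table holds. IGFBP7 and IGF2 are not among them and were not searched. Matches of 1 motif were allowed to overlap. RefSeq starts can differ from the GENCODE ends given above. The IGFBP3 window lies inside the GENCODE span of its gene, and the IGFBP6 window almost wholly inside its own. Bases before the GENCODE start of IGFBP3 were thus not searched. The windows of 4 members are shown, each 5′ to 3′ on the gene's own strand, with the E-box and the TATA box in capitals. They are IGFBP3 (chr7:45921273-45921522, minus strand), which was higher with siMondoA in untreated cells, IGFBP5 (chr2:216695550-216695799, minus strand), which had a large DXR change, IGFBP4 (chr17:40443200-40443449, plus strand), which was lower with siMlx in untreated cells, and IGF2R (chr6:159968832-159969081, plus strand), the 1 member with an E-box among the 7 searched.
IGFBP3: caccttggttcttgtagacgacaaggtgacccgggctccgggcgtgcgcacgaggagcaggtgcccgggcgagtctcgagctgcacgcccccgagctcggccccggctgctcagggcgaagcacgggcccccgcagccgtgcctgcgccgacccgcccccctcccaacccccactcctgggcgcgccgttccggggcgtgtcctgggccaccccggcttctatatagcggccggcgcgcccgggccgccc
IGFBP5: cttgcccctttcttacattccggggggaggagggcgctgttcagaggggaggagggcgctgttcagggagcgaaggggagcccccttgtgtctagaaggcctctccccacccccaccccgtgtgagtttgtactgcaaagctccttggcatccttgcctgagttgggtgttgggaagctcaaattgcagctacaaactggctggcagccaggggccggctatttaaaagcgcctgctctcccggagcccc
IGFBP4: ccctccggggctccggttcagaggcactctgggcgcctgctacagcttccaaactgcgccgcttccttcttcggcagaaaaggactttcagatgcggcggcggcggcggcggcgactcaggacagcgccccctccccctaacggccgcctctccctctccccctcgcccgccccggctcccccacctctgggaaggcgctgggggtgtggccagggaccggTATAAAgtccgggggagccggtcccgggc
IGF2R: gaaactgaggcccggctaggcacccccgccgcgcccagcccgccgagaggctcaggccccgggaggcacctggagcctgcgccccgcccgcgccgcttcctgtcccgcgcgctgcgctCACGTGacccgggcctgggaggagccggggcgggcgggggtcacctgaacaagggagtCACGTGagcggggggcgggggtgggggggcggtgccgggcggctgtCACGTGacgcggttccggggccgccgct
The IGF2R window held 3 E-boxes, which begin 132, 74 and 28 bases before the start. CACGTG was found in 6.34% of the 35116 windows of the table. IGFBP4 held a TATA box 29 bases before its start, as did 10.7% of all windows somewhere in their length. GC boxes were found in the windows of IGFBP2, IGFBP3, IGFBP4, IGFBP6, IGF1R and IGF2R, 6 of them in IGF2R, and in 42.6% of all windows, and the p53 half-site only in 1 of 3 windows of IGFBP2 and in 5.57% of all windows. These are matches of letters. Binding was not measured.

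**Figure D1:**
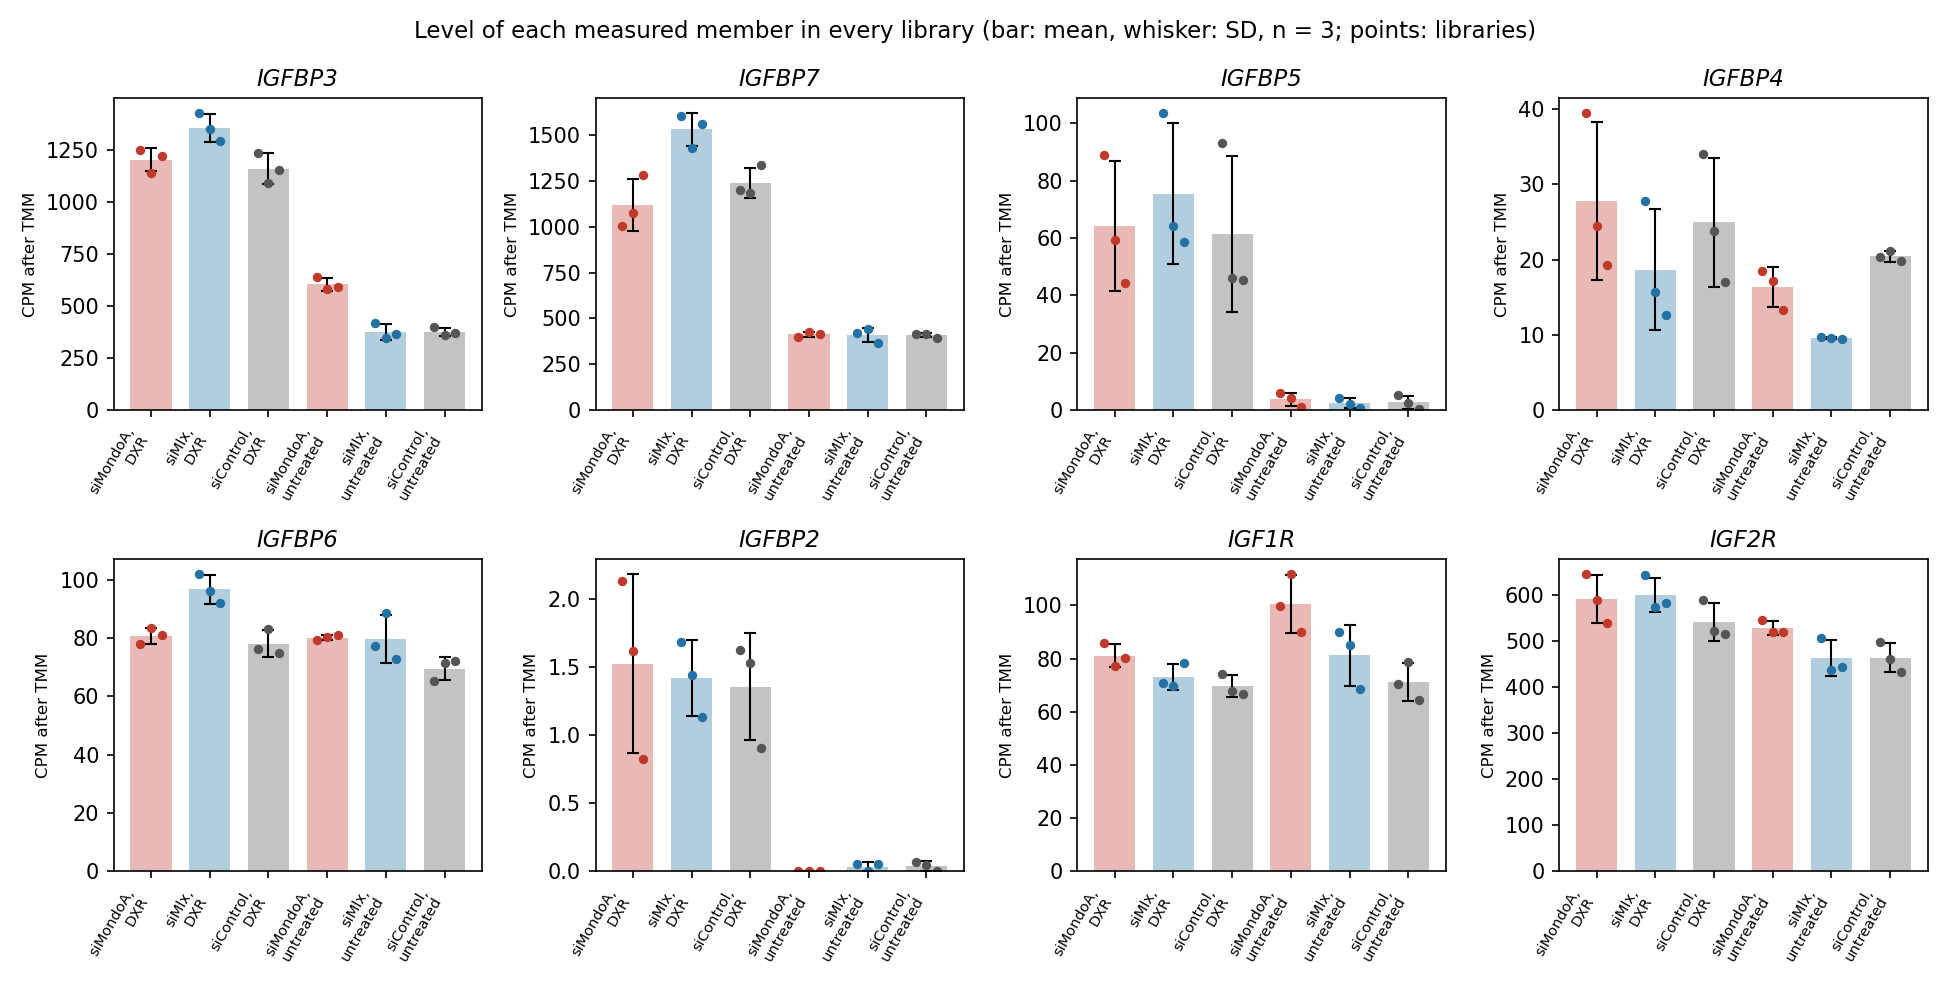
Level of the 8 tested members in every library, in CPM after TMM on linear axes that start at 0. Bars are means, whiskers SDs of 3 libraries, and points the libraries in the order of their replicate numbers. IGFBP3, IGFBP7 and IGFBP5 stand higher in every DXR library than in any untreated one, and IGFBP3 is higher in untreated siMondoA libraries, at 582 CPM and above, than in the other untreated libraries, at 419 CPM and below.

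To rank the members by transcript level, deposited RPKM values, which are per length and scaled by total counts without TMM, were used. In untreated siControl cells IGFBP7 was the most abundant, at 319 ± 7.08 RPKM (mean ± SD, n = 3 libraries here and below), followed by IGFBP3 at 147 ± 7.87, IGFBP6 at 73.9 ± 4.41 and IGF2R at 52.3 ± 3.33 RPKM. IGFBP4 at 9.37 ± 0.221, IGF1R at 5.94 ± 0.534, IGFBP5 at 0.442 ± 0.386 and IGFBP2 at 0.0280 ± 0.025 RPKM followed. Each gap between neighbours in this order was larger than the SD of either, though the libraries of IGFBP5 spread almost as widely as its mean. In siControl cells under DXR, IGFBP7 stood at 906 ± 53.8, IGFBP3 at 424 ± 22.6, IGFBP6 at 77.9 ± 5.59, IGF2R at 57.3 ± 4.08, IGFBP4 at 10.7 ± 3.66, IGFBP5 at 9.47 ± 4.14, IGF1R at 5.45 ± 0.309 and IGFBP2 at 0.916 ± 0.268 RPKM. The order among them changed in 1 place only: IGFBP5 stood beside IGFBP4 and above IGF1R, and its distance from either was within its own SD.

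The summed RPKM of the 6 binding protein genes was 1371 ± 84.9 with siMondoA, 1711 ± 57.4 with siMlx and 1428 ± 43.7 with siControl under DXR, and 665 ± 7.38, 566 ± 37.9 and 549.6 ± 7.72 in the same order of siRNAs in untreated cells. All DXR libraries lay above all untreated ones. In untreated cells the siMondoA libraries, at 659 to 674, lay above the siMlx (522 to 591) and the siControl libraries (544 to 559). IGFBP7 and IGFBP3 made up most of the sum everywhere. IGFBP3 held 36.2% ± 1.86 of it with siMondoA, 26.5% ± 2.79 with siMlx and 26.7% ± 1.14 with siControl in untreated cells, and 32.4% ± 2.51, 28.7% ± 1.21 and 29.7% ± 1.64 under DXR. The share of IGFBP6 was 5.93%, 5.56% and 5.46% under DXR with siMondoA, siMlx and siControl, against 13.1%, 15.2% and 13.4% in untreated cells, while its level moved little.

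**Figure D2:**
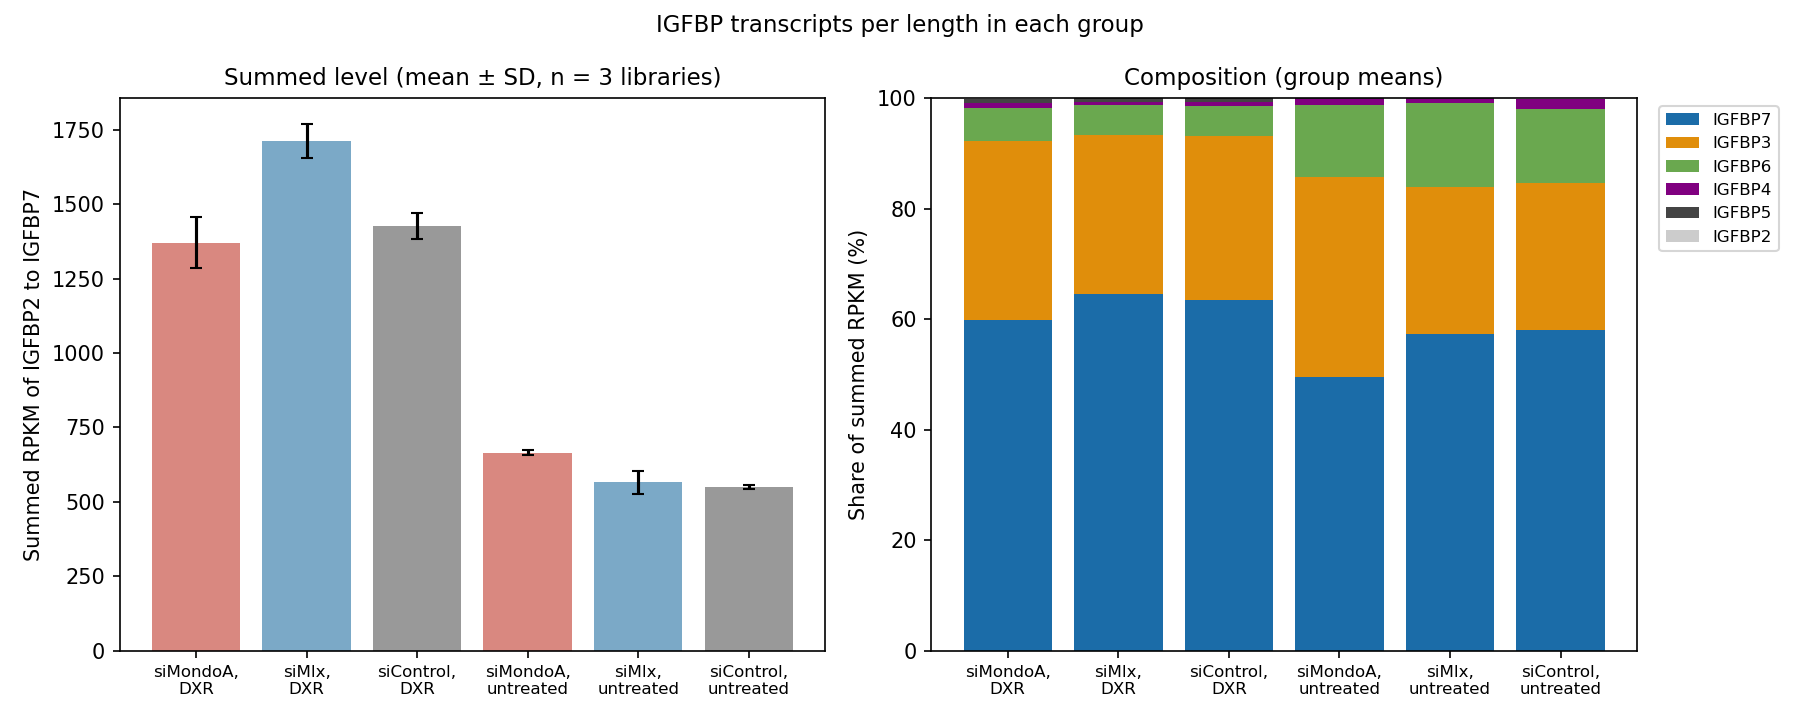
Left, the summed RPKM of IGFBP2 to IGFBP7 in each group (bars, means; whiskers, SD of 3 libraries). Right, the share of each gene in that sum, in percent, as group means, with IGFBP7 the largest share in each group, from 49.5% to 64.6%.

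Several binding protein genes differed between DXR-treated and untreated cells. Since the D5 and D0 tags go with the drug, each DXR change given here and below may hold a difference in harvest day. With siControl, IGFBP3, IGFBP7 and IGFBP5 were higher in DXR-treated than in untreated cells by log2 1.62, 1.60 and 4.47, and IGFBP6 and IGF2R by 0.17 and 0.22, while IGFBP4 (0.29) and IGF1R (-0.03) did not pass the test. Of the 7 members that were measured in both states, 5 passed as higher and 0 as lower (adjusted p under 0.05 by the quasi-likelihood test of edgeR), with a median log2 fold change of 0.29, against a median of -0.01 over all genes tested. Of the 13676 genes tested, 56.7% passed the same test, 28.1% as higher and 28.6% as lower. IGFBP2 is left out of these counts, since it passed the filter only through its DXR libraries and so had to differ. With siMondoA, 4 of the 7 passed as higher and 1 as lower (median 0.76), beside 54.2% of all genes, 26.2% as higher and 28% as lower. With siMlx, 6 of the 7 passed as higher (median 0.95), beside 62.1% of all genes, 30.9% as higher and 31.2% as lower.

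The siRNAs moved fewer members. In untreated cells, IGFBP3, IGF1R and IGFBP6 were higher with siMondoA than with siControl, and none was lower, so that 3 of the 7 passed, beside 46.6% of all genes tested (23.3% as higher and 23.3% as lower). With siMlx, IGFBP4 was lower and IGFBP6 higher, 2 of the 7, beside 47.9% of all genes (24.9% as higher and 23% as lower). Under DXR, 0 of the 7 passed with siMondoA by edgeR, beside 24.8% of all genes (10.9% as higher and 13.9% as lower). There, 1 member (IGF1R) had an unadjusted p under 0.05, and 0 passed with DESeq2. With siMlx, IGFBP3, IGFBP6 and IGFBP7 were higher under DXR, 3 of the 7, beside 30.2% of all genes (14% as higher and 16.2% as lower). No share of members called stood above the share of all genes called with siMondoA in either state or with siMlx in untreated cells. The comparisons within a state share the siControl libraries.

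Set against each other, siMondoA was higher than siMlx in untreated cells for IGFBP3, IGFBP4, IGF1R and IGF2R, 4 of the 7, beside 58.9% of all genes (28.5% as higher and 30.4% as lower). Under DXR, siMondoA was lower than siMlx for IGFBP6 and IGFBP7, 2 of the 7, beside 39% of all genes (18.9% as higher and 20% as lower). The interaction of siMondoA with DXR, which asks whether the DXR change differs from that with siControl, passed for IGFBP3 alone among the 7, beside 10.1% of all genes (5.84% as higher and 4.28% as lower). The interaction of siMlx with DXR passed for 0 of the 7 members by edgeR, beside 12.2% of all genes (6.43% as higher and 5.81% as lower), with 2 at an unadjusted p under 0.05 and 1 (IGFBP7) by DESeq2.

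**Figure D3:**
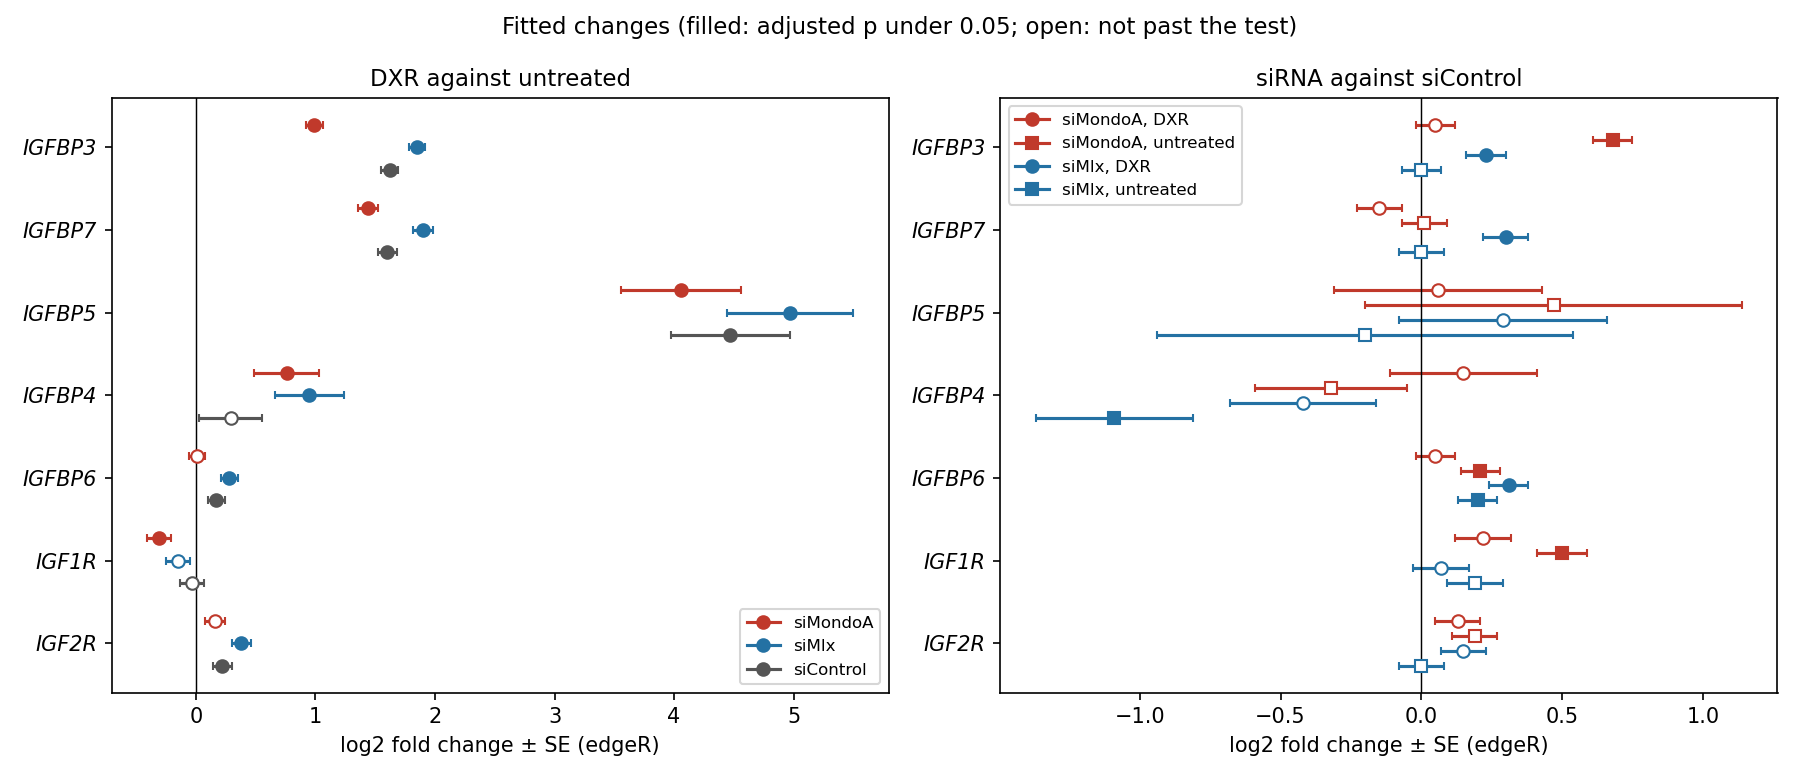
Fitted log2 fold change with its SE for 7 members, DXR against untreated within each siRNA (left) and each siRNA against siControl within each state (right). Filled symbols passed the test at an adjusted p under 0.05 and open ones did not, circles on the right are DXR and squares untreated cells, and IGFBP2, with 0 to 2 counts per untreated library, is left out. IGFBP3 changed less with DXR after siMondoA (0.99) than with siControl (1.62).

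IGFBP3 encodes the main IGF carrier of blood, where it forms a complex with the acid-labile subunit. Under DXR it had 1249, 1140.1 and 1219 CPM with siMondoA, 1426, 1349 and 1292 with siMlx, and 1235, 1089 and 1153 with siControl. In untreated cells it had 641, 582 and 590 CPM with siMondoA, 419, 345 and 368 with siMlx, and 398, 359.9 and 371 with siControl. Thus every untreated siMondoA library lay above every untreated siMlx and siControl library, and below every DXR library, while under DXR the siMondoA and siControl libraries overlapped.

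In untreated cells IGFBP3 was higher with siMondoA than with siControl by log2 0.68 (SE 0.07, edgeR adjusted p = 1.74e-07), a 1.6-fold difference, and stood at log2 0.00 with siMlx (SE 0.07, adjusted p = 0.982). Against siMlx, siMondoA was higher by log2 0.68 (adjusted p = 8.93e-08). Under DXR the difference between siMondoA and siControl was log2 0.05 (SE 0.07, adjusted p = 0.636, 95% interval -0.09 to 0.2). With siMlx IGFBP3 was higher than with siControl under DXR by log2 0.23 (adjusted p = 0.0191), a call that ended without siControl, DXR replicate 2 (0.17, adjusted p = 0.113), siControl, DXR replicate 3 (0.22, 0.0516) or siMlx, DXR replicate 1 (0.20, 0.0623). Between siMondoA and siMlx under DXR the difference was log2 -0.17 (adjusted p = 0.0578), with no overlap of libraries, and it passed in 5 of the 15 alternatives, among them the fit with the replicate number as a block (adjusted p = 0.00445, of a range up to 0.198).

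IGFBP3 was higher with DXR in each siRNA group, by log2 0.99 with siMondoA (SE 0.07, edgeR adjusted p = 1.17e-09), 1.85 with siMlx (SE 0.07, adjusted p = 3.05e-13) and 1.62 with siControl (SE 0.07, adjusted p = 3.42e-12). The change with siMondoA was smaller than that with siControl by log2 0.63 (interaction -0.63, SE 0.1, adjusted p = 0.00049). The DXR libraries of both groups overlapped and the untreated ones did not. The interaction passed in each of the 21 alternatives run, at -0.67 to -0.58 and adjusted p from 9.6e-10 to 0.00227. The interaction with siMlx was 0.22 (adjusted p = 0.158; 0.31 and 0.0408 without untreated siMlx replicate 1).

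IGFBP7 encodes a secreted protein of the extracellular matrix that is related to the binding proteins and binds IGFs weakly. Its DXR libraries had 1005, 1073 and 1280.3 CPM with siMondoA, 1602, 1431 and 1562 with siMlx, and 1199, 1185 and 1335 with siControl. Its untreated libraries had 397, 426 and 418 CPM with siMondoA, 424, 441 and 366 with siMlx, and 417, 417 and 395 with siControl. The untreated libraries of the 3 siRNAs overlapped, and under DXR every siMlx library lay above every siMondoA and siControl library.

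IGFBP7 was higher with DXR by log2 1.44 with siMondoA (SE 0.08, edgeR adjusted p = 7.77e-11), 1.90 with siMlx (SE 0.08, adjusted p = 1.21e-12) and 1.60 with siControl (SE 0.08, adjusted p = 2.01e-11). Under DXR, siMlx was higher than siControl by log2 0.30 (SE 0.08, adjusted p = 0.00739). The difference between siMondoA and siControl there was -0.15 (adjusted p = 0.206), which passed only without siMondoA, DXR replicate 3 (-0.25, adjusted p = 0.0238, of a range up to 0.587 over the alternatives). Under DXR siMondoA was lower than siMlx by log2 0.45 (log2 -0.45, adjusted p = 0.000179). In untreated cells the changes were 0.01 with siMondoA (95% interval -0.16 to 0.18) and 0.00 with siMlx (-0.17 to 0.17). The interactions were -0.16 with siMondoA (adjusted p = 0.431) and 0.30 with siMlx (adjusted p = 0.0963). That with siMlx passed with DESeq2 (0.32, adjusted p = 0.0463) and with no low-count filter (0.32, 0.00722), of a range up to 0.23 over the alternatives.

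IGFBP5 encodes a binding protein that also attaches to extracellular matrix. Levels under DXR were 89.0, 59.4 and 44.4 CPM with siMondoA, 103.7, 64.2 and 58.6 with siMlx, and 93.0, 46.0 and 45.5 with siControl. Levels without DXR were 5.84, 4.28 and 1.15 CPM with siMondoA, 4.38, 2.17 and 0.783 with siMlx, and 5.18, 2.39 and 0.505 with siControl. Every DXR library lay above every untreated one, and within each group the libraries spread widely, with a coefficient of variation of 32.5% to 87.4%.

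The DXR change of IGFBP5 was log2 4.06 with siMondoA (SE 0.5, edgeR adjusted p = 1.26e-06), 4.97 with siMlx (SE 0.53, adjusted p = 1.27e-07) and 4.47 with siControl (SE 0.5, adjusted p = 3.34e-07), the last a 22.2-fold difference. With no low-count filter some siRNA differences or interactions of IGFBP5 passed, at nearly the same fold changes. None of its siRNA differences or interactions passed in the main fit. Their intervals were wide: for siMondoA against siControl the log2 difference was 0.47 (95% interval -0.92 to 1.87) in untreated cells and 0.06 (-0.71 to 0.84) under DXR, and for siMlx -0.20 (-1.74 to 1.34) and 0.29 (-0.48 to 1.07).

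IGFBP2, which encodes a binding protein prominent in fetal tissue, was near the detection limit. It had 38, 32 and 15 counts under DXR with siMondoA, 29, 29 and 21 with siMlx and 32, 30 and 19 with siControl. In untreated cells it had 0, 0 and 0 counts with siMondoA, 1, 0 and 1 with siMlx, and 2, 1 and 0 with siControl. All DXR libraries lay above all untreated ones, at 0.83 to 2.13 CPM. Scaled for library size, the pooled counts were 34.8 times higher with DXR than in untreated siControl cells (95% exact interval from counting error alone, 11.5 to 172), 40.2 times with siMlx (10.8 to 338) and with siMondoA at least 29.7-fold higher when the 0 untreated counts are set to a floor of 3 over the group, where the exact interval begins lower, at 23.6. Differences between siRNAs were not detectable at this depth. The ratio of siMondoA to siControl under DXR was 1.13 (0.824 to 1.55) and that of siMlx to siControl 1.05 (0.76 to 1.45).

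IGFBP4 encodes a binding protein known mostly as an inhibitor of IGF action, and it is the classical substrate of PAPPA. The DXR libraries had 39.5, 24.5 and 19.3 CPM with siMondoA, 27.8, 15.6 and 12.6 with siMlx, and 34.0, 23.8 and 17.0 with siControl. The untreated libraries had 18.4, 17.2 and 13.3 CPM with siMondoA, 9.71, 9.59 and 9.44 with siMlx, and 20.3, 21.1 and 19.8 with siControl. The 3 untreated groups did not overlap, with siMlx lowest and siControl highest, whereas the DXR groups spread widely and overlapped.

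In untreated cells IGFBP4 was lower with siMlx than with siControl by log2 1.09 (log2 -1.09, SE 0.28, edgeR adjusted p = 0.00341), which left 0.47 of the control level. The difference with siMondoA was -0.32 (SE 0.27, adjusted p = 0.35) although its libraries did not overlap those of siControl, and the fit, which takes 1 spread for all groups, passed it when only the compared groups entered (adjusted p = 0.0294) and when no low-count filter was set (0.00427), out of a range up to 0.622. Against siMlx, siMondoA was higher by log2 0.77 (adjusted p = 0.0286), a call lost in 5 of 6 fits that left out 1 library. Under DXR the differences from siControl were 0.15 with siMondoA (adjusted p = 0.718) and -0.42 with siMlx (adjusted p = 0.247), and that with siMlx passed without siMlx, DXR replicate 1 (-0.80, adjusted p = 0.0294, of a range up to 0.773 over the alternatives) or with no low-count filter (0.000245). Between siMondoA and siMlx under DXR the difference of 0.58 (adjusted p = 0.092) passed in 4 of the 15 alternatives, among them the fit with the replicate number as a block (adjusted p = 0.00914, of a range up to 0.52).

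The DXR change of IGFBP4 was log2 0.76 with siMondoA (SE 0.27, edgeR adjusted p = 0.0213), 0.95 with siMlx (SE 0.29, adjusted p = 0.00751) and 0.29 with siControl (SE 0.26, adjusted p = 0.355). The first rested on siMondoA, DXR replicate 1 (0.42 without it, adjusted p = 0.196) and on untreated siMondoA replicate 3 (0.64, 0.0806) and was also lost on log2(RPKM + 1) (0.55, 0.072) and log2(RPKM + 0.1) (0.60, 0.0702), and the second on siMlx, DXR replicate 1 (0.58, 0.0795). The interactions, 0.47 with siMondoA (adjusted p = 0.478) and 0.67 with siMlx (adjusted p = 0.299), did not pass, but did with no low-count filter (0.49, adjusted p = 0.00936, and 0.68, adjusted p = 9.25e-05). There the fold changes hardly moved and the DXR libraries spread as widely, so these gained calls say little.

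IGFBP6 encodes a binding protein that prefers IGF-II. Under DXR it had 78.0, 83.5 and 80.8 CPM with siMondoA, 101.9, 96.0 and 92.1 with siMlx, and 76.2, 83.2 and 74.8 with siControl. In untreated cells it had 79.3, 80.2 and 80.9 CPM with siMondoA, 77.4, 88.6 and 72.6 with siMlx, and 65.1, 71.3 and 72.2 with siControl. Its levels were the steadiest of the binding proteins, with group means spanning log2 0.48, and the siMlx, DXR libraries lay above all others.

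With siMlx under DXR, IGFBP6 was higher than with siControl by log2 0.31 (SE 0.07, edgeR adjusted p = 0.00162), a difference that passed in each of the 15 alternatives, and siMondoA was lower than siMlx there (log2 -0.26, adjusted p = 0.00457). In untreated cells it was higher by log2 0.21 with siMondoA (adjusted p = 0.0167) and 0.20 with siMlx (adjusted p = 0.0219). Both calls were lost without untreated siControl replicate 1 (0.16, adjusted p = 0.0913, and 0.15, adjusted p = 0.114), and that with siMlx also without untreated siMlx replicate 2 (0.11, adjusted p = 0.195) and with the compared groups alone (0.18, 0.0855). With DXR it was higher by log2 0.28 with siMlx (adjusted p = 0.00123; 0.15 and 0.0617 on log2(RPKM + 1), 0.15 and 0.0609 on log2(RPKM + 0.1)) and 0.17 with siControl (adjusted p = 0.0393), and stood at 0.01 with siMondoA (adjusted p = 0.894). The siControl call was lost in 7 of 15 alternatives, among them log2(RPKM + 1) values (0.07, adjusted p = 0.359), no low-count filter (0.14, 0.143) and the removal of untreated siControl replicate 1 (0.12, 0.175) or 2 (0.18, 0.0515) or of siControl, DXR replicate 1 (0.18, 0.0522) or 2 (0.11, 0.229).

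IGF2, the gene of IGF-II, had at most 1 count in any library. The related ligand gene IGF1 had 0 to 2 counts per library and IGFBP1, whose product is made mainly by liver, 0 to 6. None of the 5 other ligand and carrier genes listed (IGF1, INS, IGFALS, IGFBP1 and IGFBPL1) had enough counts to be tested.

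IGF1R encodes the receptor tyrosine kinase that binds both IGFs. With DXR, IGF1R stood at 85.7, 77.3 and 80.1 CPM with siMondoA, 70.9, 69.7 and 78.5 with siMlx, and 74.4, 67.8 and 66.6 with siControl. Without DXR, IGF1R stood at 99.8, 111.8 and 90.1 CPM with siMondoA, 90.2, 85.1 and 68.4 with siMlx, and 70.6, 78.7 and 64.5 with siControl. The siMondoA libraries lay above the siControl libraries in both states, and the siMlx libraries overlapped those of siControl.

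In untreated cells IGF1R was higher with siMondoA than with siControl by log2 0.50 (SE 0.09, edgeR adjusted p = 0.000221), a call kept in each of the 15 alternatives, and by 0.31 than with siMlx (adjusted p = 0.00865). The difference from siMlx was lost without untreated siMlx replicate 3 (0.20, adjusted p = 0.0679) or untreated siMondoA replicate 2 (0.23, 0.0677). With siMlx the difference from siControl was 0.19 (adjusted p = 0.109), which passed without untreated siControl replicate 2 (0.26, 0.0458) or untreated siMlx replicate 3 (0.30, 0.0111). Under DXR the differences were 0.22 with siMondoA (SE 0.1, adjusted p = 0.107, past the test in 2 of the 15 alternatives) and 0.07 with siMlx (adjusted p = 0.642). With siMondoA, IGF1R was lower in DXR-treated than in untreated cells (log2 -0.31, adjusted p = 0.00924, and -0.23 and 0.067 without untreated siMondoA replicate 2). The DXR changes with siMlx (-0.15, adjusted p = 0.175) and siControl (-0.03, adjusted p = 0.796) did not pass. That with siMlx passed without untreated siMlx replicate 3 (-0.26, 0.0184), on log2(RPKM + 1) (-0.24, 0.0232) and on log2(RPKM + 0.1) (-0.28, 0.0216). The interaction with siMondoA was -0.28 (adjusted p = 0.206), so that the DXR change was not shown to differ from that with siControl.

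IGF2R encodes the mannose 6-phosphate receptor, which also sorts enzymes to lysosomes. In DXR-treated cells IGF2R had 645, 588 and 539 CPM with siMondoA, 642, 574 and 583 with siMlx, and 588, 521 and 514 with siControl. Untreated cells had 545, 519 and 519 CPM with siMondoA, 507, 436 and 444 with siMlx, and 497, 461 and 433 with siControl. Within each siRNA the DXR libraries lay above the untreated ones, except that siMondoA, DXR replicate 3 lay below untreated siMondoA replicate 1.

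IGF2R was higher with DXR by log2 0.38 with siMlx (SE 0.08, edgeR adjusted p = 0.000267) and 0.22 with siControl (SE 0.08, adjusted p = 0.0182). The change with siMondoA was 0.16 (adjusted p = 0.0793, and 0.22 and 0.0275 without siMondoA, DXR replicate 3). The siControl call was lost on log2(RPKM + 1) values (0.13, adjusted p = 0.151) and without untreated siControl replicate 3 (0.17, 0.0933) or siControl, DXR replicate 1 (0.16, 0.115). In untreated cells siMondoA was higher than siControl by 0.19 (adjusted p = 0.051), and with the replicate number as a block this passed (0.19, adjusted p = 0.00179). It passed in 8 of the 15 alternatives, with adjusted p up to 0.198. Under DXR the differences from siControl, 0.13 with siMondoA (adjusted p = 0.245) and 0.15 with siMlx (adjusted p = 0.152), passed only with the replicate number as a block (adjusted p = 0.0434 and 0.015). Against siMlx in untreated cells, siMondoA was higher by 0.19 (adjusted p = 0.0375), a call lost in 5 of 6 fits that left out 1 library.

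Some members carried a pattern of replicate numbers. IGFBP3, IGFBP5 and IGF2R were highest in replicate 1 of each of the 6 groups, and IGFBP2 and IGFBP4 in 5 of them. Replicate 3 was the lowest library of each group for IGFBP4 and IGFBP5. Among all genes tested, 147 (1.07%) had replicate 1 highest in all 6 groups, 23 had replicate 2 and 140 had replicate 3. The step was largest for IGFBP5, for which replicate 1 of the untreated siControl group had 5.18 CPM and replicate 3 had 0.505 CPM. The library descriptions end in a tag that goes with the replicate number in all 6 groups, with no explanation. What the replicate numbers stand for is thus not in the labels, and their part in the results above was not tested beyond the fits with a block.

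**Figure D4:**
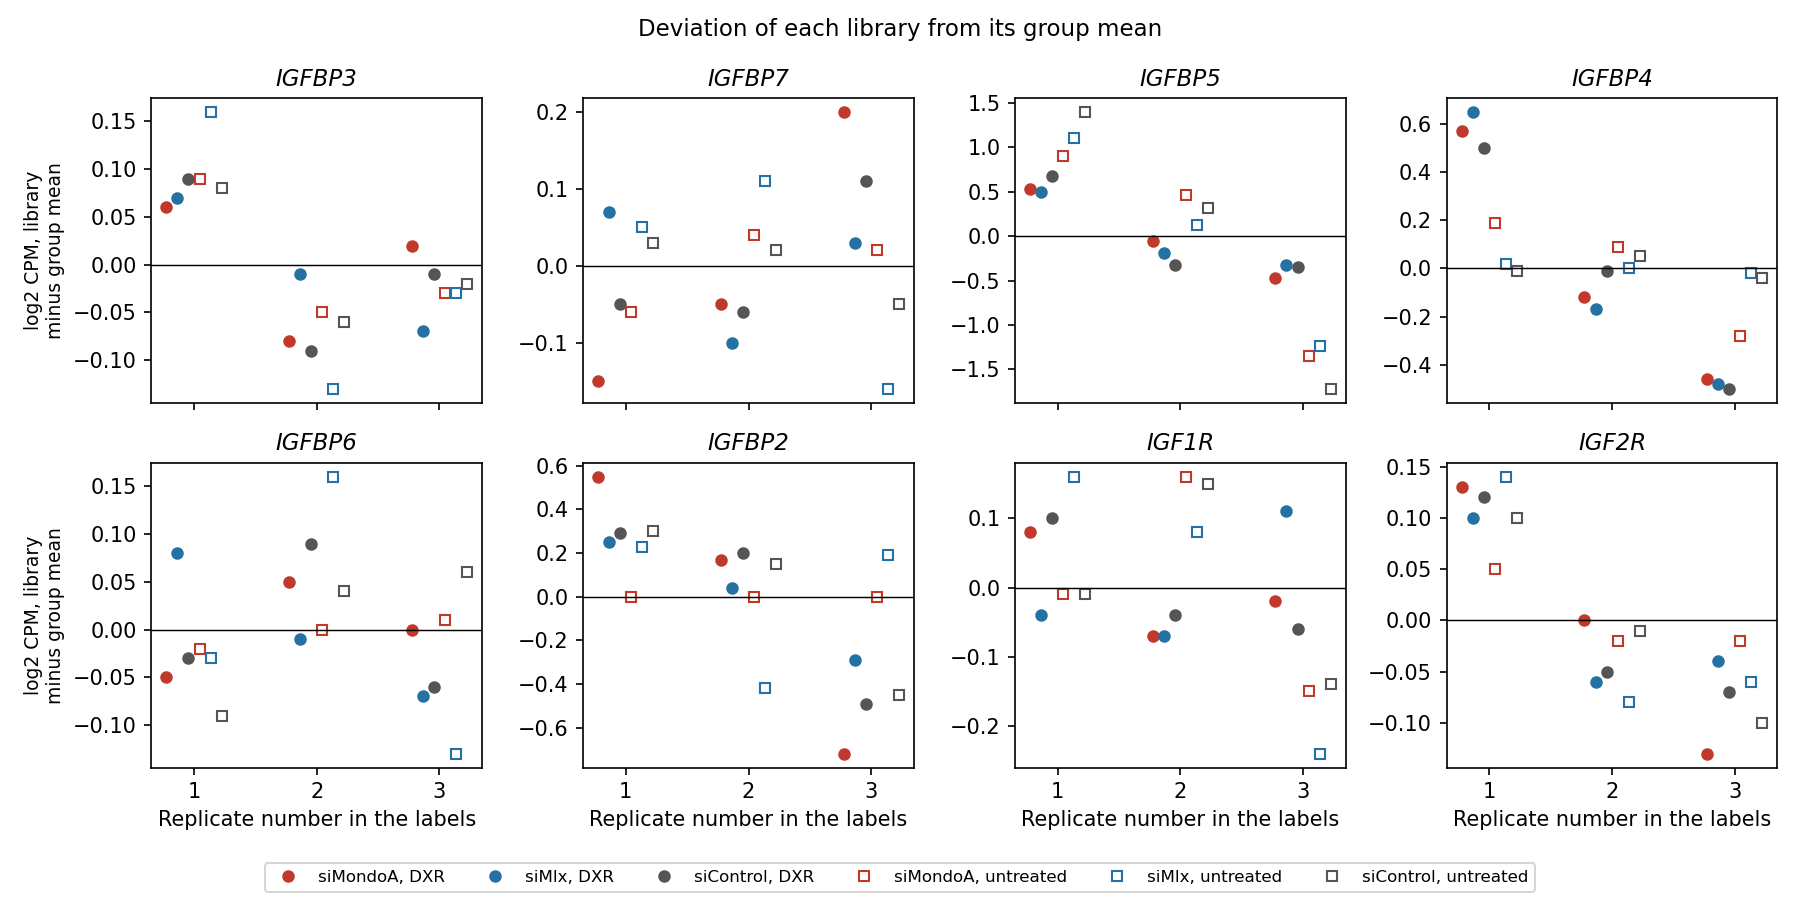
Deviation of each library from its group mean, in log2 CPM, by replicate number, for 8 members (circles, DXR; squares, untreated). Vertical axes differ between panels. For IGFBP3, IGFBP5 and IGF2R all 6 points at replicate 1 are the highest of their group, and for IGFBP4 and IGFBP5 all 6 at replicate 3 are the lowest.

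The genes whose levels were most like a member's over the 18 libraries were found by the root-mean-square difference of centred log2 CPM, for members whose group means spanned at least 1 log2 unit. For IGFBP3 they were SERPINI1 (0.15), PLXNB1 (0.156) and REEP2 (0.157), and for IGFBP7 MFGE8 (0.154), PLXNA3 (0.174) and PKP2 (0.186). For IGFBP4 they were TSPAN6 (0.287), BVES (0.299) and B2M (0.306). The nearest genes were farther off for IGFBP5, namely COL4A4 (0.676), CLCA2 (0.86) and SPATA18 (0.892), and for IGFBP2, namely TMEM59L (0.493), PTCHD4 (0.506) and AK4 (0.524). IGFBP6, IGF1R and IGF2R spanned less than 1 unit. Likeness says nothing of shared control.

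Around the members, 14 genes of proteases that cleave binding proteins and of their inhibitors were listed, and 12 were tested. With DXR in siControl cells 7 were higher and 3 lower (median log2 0.31), beside 28.1% and 28.6% of all genes tested. PAPPA, which cleaves IGFBP4 and IGFBP5, stood at 437 ± 22.6 CPM with DXR and 166 ± 18.1 CPM untreated (log2 1.40, SE 0.09, edgeR adjusted p = 1.43e-10). PLAT, the tissue plasminogen activator gene, rose by log2 1.16 (edgeR adjusted p = 1.47e-09). With siMondoA PAPPA rose by 1.01 and with siMlx by 1.49 under DXR (adjusted p = 1.02e-08 and 2.88e-11).

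The siRNAs also moved members of the protease list. PLAU, the urokinase gene, was lower with siMondoA by log2 1.01 in untreated cells (125.8 ± 6.96 CPM against 254.1 ± 19.1 with siControl, log2 -1.01, edgeR adjusted p = 1.03e-08) and under DXR (-0.98, adjusted p = 5.22e-08), and with siMlx (-0.50, adjusted p = 6.36e-05, and -0.32, adjusted p = 0.00679). The stanniocalcin genes STC1 and STC2 encode inhibitors of PAPPA. Under DXR STC1 was lower with siMondoA (-0.86, adjusted p = 5.46e-09) and siMlx (-0.55, adjusted p = 1.43e-06), and STC2 was higher with siMondoA (0.19, adjusted p = 0.00855) and lower with siMlx (-0.25, adjusted p = 0.000765). In all, 2 of 12 were higher and 4 lower with siMondoA in untreated cells (23.3% and 23.3% of all genes) and 1 and 3 under DXR (10.9% and 13.9%). With siMlx 2 were higher and 5 lower in untreated cells (24.9% and 23% of all genes) and 3 and 3 under DXR (14% and 16.2%).

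Downstream of the receptor, 29 genes of the PI3K, AKT, FOXO and mTOR pathway were tested. With siMondoA 4 were higher and 17 lower in untreated cells (median -0.19), beside 23.3% and 23.3% of all genes, and 2 and 12 under DXR (median -0.13), beside 10.9% and 13.9%. With siMlx 4 were higher and 14 lower in untreated cells (median -0.20), beside 24.9% and 23% of all genes, and 2 and 10 under DXR (median 0.01), beside 14% and 16.2%. The medians over all genes tested were 0.01 or 0.02 in these comparisons. AKT2, which encodes an AKT kinase, was higher, at 141.4 ± 3.56 CPM with siMondoA, 168.5 ± 3.34 with siMlx and 72.3 ± 4.48 with siControl in untreated cells (log2 0.97, edgeR adjusted p = 9.81e-12, and 1.22, adjusted p = 1.92e-13). Under DXR it was higher by 0.70 and 0.63 (adjusted p = 4e-09 and 1.16e-08). PDPK1 and PIK3CB, which encode kinases upstream of AKT, were lower with siMondoA in untreated cells (-0.75, adjusted p = 1.23e-08, and -0.83, adjusted p = 1.81e-09), and PHLPP2, an AKT phosphatase gene, was lower with siMlx (-1.76, adjusted p = 5.3e-12). With DXR in siControl cells 8 of the 29 were higher and 11 lower, beside 28.1% and 28.6% of all genes.

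Of 13 tested genes of related receptors and adaptors, 5 were higher and 2 lower with siMondoA in untreated cells, beside 23.3% and 23.3% of all genes, and 2 and 7 with siMlx, beside 24.9% and 23%. IRS2, an insulin and IGF receptor substrate, was higher with siMondoA (log2 0.44, edgeR adjusted p = 0.000756, and 0.36 under DXR, adjusted p = 0.00815). PTPN1, which encodes a phosphatase of the insulin receptor, was higher with siMondoA (0.35, adjusted p = 1.68e-05) and lower with siMlx (-1.20, adjusted p = 5.46e-13). SOCS2, a feedback inhibitor gene, was higher with both siRNAs in untreated cells (1.15, adjusted p = 1.8e-05, and 1.61, adjusted p = 1.63e-07). Of 7 tested genes that share the IGFBP fold, CYR61 (now CCN1) was lower in untreated cells with siMondoA (-0.50, adjusted p = 9.76e-06) and siMlx (-0.52, adjusted p = 6.6e-06), and CTGF (now CCN2) was higher with DXR in siControl cells (0.76, adjusted p = 5.28e-06). Of the 3 genes of IGF2 mRNA-binding proteins, IGF2BP3 was higher with siMondoA (0.29, adjusted p = 0.00979) and lower with siMlx (-0.58, adjusted p = 2.1e-05) in untreated cells.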

How the data were processed

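RNA was prepared with RNeasy Plus and libraries with TruSeq Stranded mRNA, per the labels' protocols, and reads were aligned with TopHat2 2.1.1 to GRCh38, per the submitters' processing notes. Which counter and annotation were used, and whether strand was used, is not given in the sources used. The authors deposited raw counts per gene for all 18 libraries, and RPKM values for the same genes. The deposited RPKM values, scaled by each library's total counts, fit 1 whole gene length (within 0.01 bases) for 24845 of 24846 genes with a count. They thus hold no TMM scaling. TMM factors were 0.938 to 0.9852 in DXR libraries and 1.018 to 1.068 in untreated ones, so that DXR changes stand lower on RPKM than after TMM.

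Counts were tested with edgeR 4.0.16 (R 4.3.3): filterByExpr by group, which kept 13676 of 33121 genes, TMM scaling, 1 quasi-likelihood fit with a mean for each of the 6 groups (12 residual degrees of freedom), two-sided tests and Benjamini-Hochberg adjustment over all genes tested at 0.05. Fold changes are the first-named group over the second. Levels are CPM after TMM, and log2 levels used a prior count of 2. The lowest correlation between replicates was 0.99, and no pair agreed within counting noise (chi-square per degree of freedom 3.75 to 16.4). On simulated counts for the siMondoA comparison in untreated cells (13058 genes), 83.6%, 92.5% and 100% of genes changed 1.5-, 2- and 4-fold were recovered. All libraries were drawn from the untreated siControl means, and only 67, 67 and 66 genes were changed. These were picked above a minimum expected count, so the recovery does not hold for genes as low as IGFBP2. Intervals of IGFBP2 cover counting error only.

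Each result was recomputed with DESeq2 1.42.0, with RLE or upper-quartile scaling, with no filter, 1 CPM in 3 libraries, the compared groups alone, the replicate number as a block, limma-trend (3.58.1) on log2(RPKM + 1) and log2(RPKM + 0.1), and without each library in turn. Libraries with the same replicate number were called paired where all 3 correlations of their deviations from the group means were over 0.1. This held for siMondoA against siControl in untreated cells (0.11, 0.10 and 0.33), for siMondoA against siControl (0.23, 0.17 and 0.27), siMlx against siControl (0.28, 0.17 and 0.27) and siMondoA against siMlx (0.25, 0.17 and 0.26) under DXR, and for no other comparison. The pairing was taken from these data. The library descriptions end in a tag shared by the libraries of the same replicate number in all 6 groups, but do not explain it. The main fit, which gave the calls above, took no account of it. Only the alternative with the replicate number as a block did.

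The members and the gene lists were chosen with earlier results of these data known, so no test over a list was made. Named were all 9 members, MLXIP and MLX, and, of each list in each of the 5 main comparisons, up to 3 genes with the smallest p among those past the test, of which some are not reported here. Also named were, for each member spanning at least 1 log2 unit, the 3 genes most like it among those with a mean of at least 5 CPM. Figures were drawn with matplotlib 3.10.9.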

Additional observations from a re-analysis of the deposited data

Results flagged for a closer look

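The DXR change of IGFBP3 differed between siMondoA and siControl cells. Here too, harvest day and DXR cannot be told apart. The interaction was log2 -0.63 (SE 0.1, edgeR adjusted p = 0.00049), with DXR changes of 0.99 with siMondoA and 1.62 with siControl. IGFBP3 averaged 1203 ± 56.1 CPM with siMondoA and 1159 ± 73.5 CPM with siControl under DXR, and 604.3 ± 32.1 CPM with siMondoA and 376.5 ± 19.6 CPM with siControl in untreated cells (SD, n = 3 libraries each).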

How the results depend on the processing

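Over the fold changes of the 8 tested members, 1328 of 1411 alternative values kept their side of the threshold. Of these, 90 differed in the sign of the rounded value while past the threshold in neither fit. A value that rounds to 0 counted there as different from either sign. The main values of IGFBP3, IGFBP7 and IGF2R with siMlx in untreated cells round to 0, so not all 90 are true changes of sign. A call was lost in 38, gained in 45 and reversed in 0. The total includes IGFBP2, which passed the filter only through its DXR libraries, so that its kept DXR calls say little. Where the reason is not in the alternative itself (fewer libraries or genes, or another scaling, such as RPKM without TMM), the cause was not tested. With no low-count filter, the members past the test numbered 6, not 3, for siMondoA in untreated cells, 1, not 0, for siMondoA under DXR, 5, not 3, for siMlx under DXR, 5, not 2, for siMondoA against siMlx under DXR, 2, not 1, for the interaction with siMondoA and 3, not 0, for that with siMlx. No low-count filter gave 15 of the 45 gained calls, at nearly unchanged fold changes. For IGFBP4 between siMondoA and siMlx under DXR the log2 difference stayed at 0.58, while the edgeR adjusted p went from 0.092 to 7.94e-08. Its libraries there had coefficients of variation of 37.8% and 43.1%, so calls gained this way say little. With the compared groups alone the members past the test numbered 5 and 1 for siMondoA and siMlx in untreated cells (3 and 2) and 1 for siMondoA under DXR (0). With the replicate block they numbered 1 for siMondoA under DXR, 4 for siMondoA against siMlx under DXR and 1 for the interaction with siMlx (IGFBP3, 0.23, adjusted p = 0.0204). With DESeq2 the interaction with siMlx passed for 1. Leaving out 1 library gave 1 to 3 members for siMlx in untreated cells, 0 to 1 for siMondoA under DXR, 1 to 3 for siMondoA against siMlx in untreated cells (4) and 0 to 1 for the interaction with siMlx, and 918 to 1384 genes for the interaction with siMondoA (1384), with 918 without untreated siMondoA replicate 1.

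Where the numbers were not taken as pairs, the block also passed IGF2R for DXR with siMondoA (0.16, adjusted p = 0.00582). Of the genes past the test with DXR, 49.5% with siControl, 48.4% with siMondoA and 49.8% with siMlx were higher, against 37.5%, 33.9% and 36.4% on log2(RPKM + 1) and 37.9%, 34.2% and 36.9% on log2(RPKM + 0.1). For the interaction with siMlx it was 52.5%, against 38.3% and 40.2%, and with upper-quartile scaling 45.4%, against 57.7%, for the interaction with siMondoA and 56.2%, against 46.2%, for siMlx under DXR. With log2(RPKM + 0.1) the median of all genes was -0.13 for DXR with siMondoA (-0.02) and -0.12 with siMlx (0). Without length scaling IGFBP3 held 48.2%, 44% and 45.2% of the binding protein sum under DXR with siMondoA, siMlx and siControl, and 54%, 42.9% and 42.8% in untreated cells, and IGFBP7 44.8%, 49.7% and 48.4%, and 37%, 46.6% and 46.6%. Counts of IGFBP2, IGF2 and untreated IGFBP5 limit what can be detected.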
